A study of Homo sapiens with 6 samples.

Results

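The genes described here make and remove lipid peroxides. They are ACSL4, LPCAT3, POR, PEBP1, GPX4, AIFM2, DHODH and GCH1, chosen by symbol as the enzymes that build the oxidisable lipid of ferroptosis, help to oxidise it, or defend against the peroxide. Each symbol had 1 row, giving 8 of the 60643 genes of the deposited table, and all 8 were among the 14475 genes tested. The libraries came from HCT116, an established human colorectal cancer cell line, carrying a doxycycline-inducible short hairpin RNA against CAPG, an actin filament capping protein. The cells with doxycycline had 100 ng/µl of it, in the unit of the labels, for 3 days and are labelled as the CAPG knockdown (3 libraries, +Dox). The cells without doxycycline are labelled untreated and wild type (3 libraries, -Dox), although the sample names give them the same hairpin. Doxycycline and induction of the hairpin always went together, so their effects cannot be told apart. The labels name a single hairpin, so its off-target effects cannot be told from loss of CAPG either. Nothing in the labels says whether the 3 replicates were separate cultures or whether the line was 1 clone. The p-values therefore reflect the variation among these 6 libraries alone, and that variation may be technical. The series title connects CAPG silencing with ferroptosis, which is the question these genes bear on.

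Ferroptosis is a form of cell death in which iron-driven oxidation of polyunsaturated fatty acids (PUFAs) in membrane phospholipids outruns repair. ACSL4 and LPCAT3 place PUFAs in phospholipids, the oxidoreductase POR and the lipoxygenase partner PEBP1 favour their oxidation, and GPX4 reduces the resulting phospholipid hydroperoxides with glutathione. AIFM2 (also called FSP1), DHODH and GCH1 act beside GPX4 by keeping radical-trapping antioxidants reduced or supplied.

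The targeted gene was lower in every library labelled as the knockdown. CAPG (ENSG00000042493.16) was at 8.18, 8.03 and 9.97 FPKM with doxycycline, against 61.1, 56.9 and 53.7 FPKM without it (log2 change -2.59, SE 0.10, limma adjusted p = 7.24e-06). FPKM is fragments scaled to transcript length and to the mapped fragments of the library, and the log2 changes here are of log2(FPKM + 1), which understates the change of low genes. Depth was estimated at 17800000 to 18100000 fragments with doxycycline and 14100000 to 17900000 without it, so that a floor of 3 fragments, for a transcript of 1 kb, amounts to 0.166 to 0.213 FPKM, counting error only. Replicate 3 with doxycycline stood apart, with FPKM values that summed to 586911 where the other libraries had 521832 to 536037. Of 10 colorectal epithelial markers 8 were tested. EPCAM rose (log2 change 0.34, limma adjusted p = 0.0401) and 0 fell, beside 3.69% higher and 4.77% lower among all tested genes. Its call was kept without replicate 3 with doxycycline and lost without any other single library. The log2 change was positive in 7 of the 8 and negative in 1 (median 0.20), where 50.4% of all tested genes were negative. CDX1 was listed at 0 and VIL1 was at most 0.0549 FPKM on average in either group. The summed epithelial level was 1939 to 2287 FPKM with doxycycline and 1729 to 1948 FPKM without it, and its part in the results below was not tested; in bulk RNA, a different share of cells and a different RNA level per cell cannot be told apart. Of 7 fibroblast markers COL1A1 alone was tested (log2 change -0.10), COL1A2 and DCN were listed at 0, and the list summed to 7.58 to 9.80 FPKM with doxycycline and 7.97 to 11.3 FPKM without it. The 6 leukocyte markers summed to at most 1.53 FPKM with and 1.96 FPKM without doxycycline, and the 5 endothelial markers to at most 0.599 and 0.333 FPKM.

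None of the 8 genes passed the test. By limma, with a Benjamini-Hochberg adjusted p under 0.05 as the threshold, 0 rose and 0 fell with doxycycline; the limma calls over the whole table came to 3.69% higher and 4.77% lower. Before adjustment, a limma p under 0.05 was reached by AIFM2, with a positive change, and LPCAT3, with a negative one, 1 of 8 in each direction, beside 13.6% and 14.3% of all tested genes (27.9% in either direction). The groups did not overlap in 3 of the 8 genes: AIFM2 and GCH1 lay higher and LPCAT3 lower with doxycycline. Among all tested genes 34.5% had groups that did not overlap, so the share of the 8 was close to the background. The median log2 change of the 8 genes was 0.09 and that of all tested genes 0.00. The median size of the change, without its sign, was 0.17 in the 8 genes and 0.16 in all tested genes. The smallest change that limma called anywhere was 0.28 and the median of the called changes was 0.50, against a largest change of 0.32 among the 8.

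**Figure D1:**
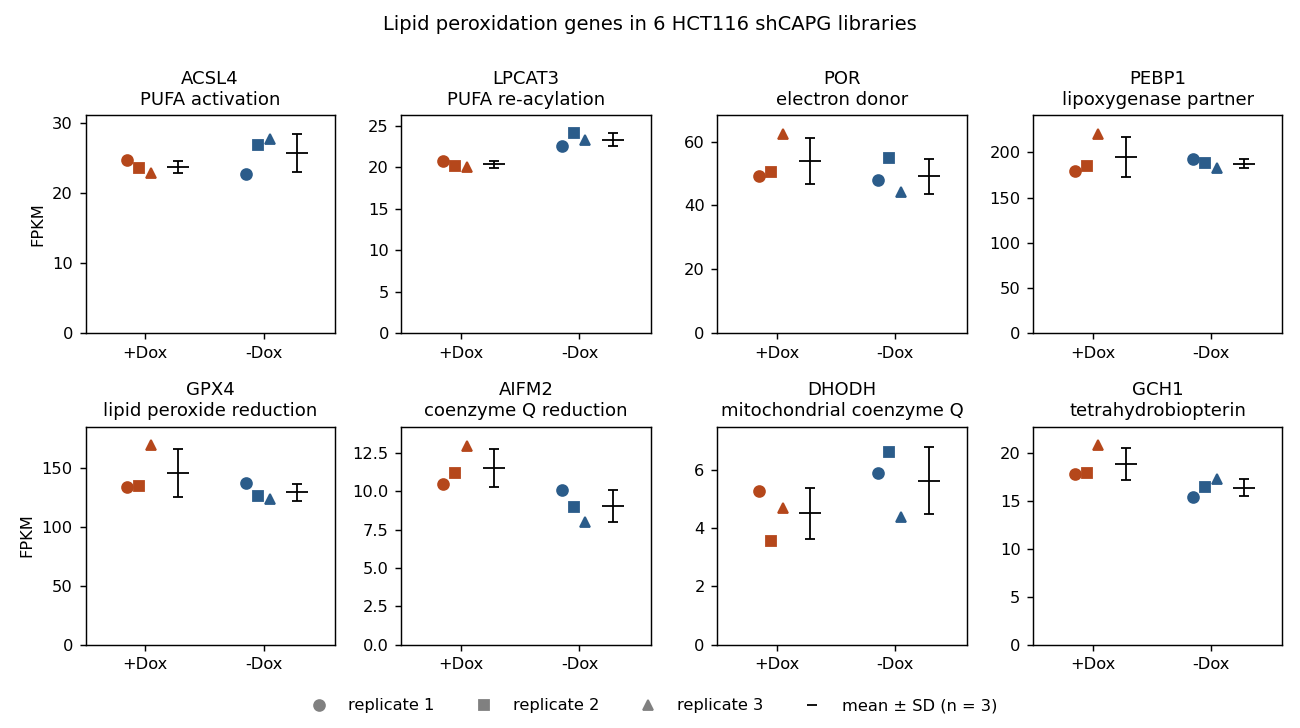
FPKM (linear axes from 0) of the 8 genes in the 3 libraries with doxycycline (orange, left) and the 3 without (blue, right); symbols mark replicates and the bars are mean ± SD. AIFM2 and GCH1 lie higher and LPCAT3 lower in all 3 libraries with doxycycline, and in the other 5 genes the groups overlap.

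In level per transcript length the 8 genes spanned a wide range. PEBP1 averaged 195 ± 22.5 FPKM with doxycycline and 188 ± 5.11 FPKM without it (SD, n = 3 each), above 97.1% and 97.3% of tested genes. GPX4 came next, followed by POR, ACSL4, LPCAT3, GCH1, AIFM2 and DHODH. The order of the means was the same in both groups. Neighbours in this order were separated in every library of a group except for ACSL4 and LPCAT3, whose values overlapped without doxycycline, and LPCAT3 and GCH1, whose values overlapped with it. DHODH averaged 4.51 ± 0.883 FPKM with doxycycline and 5.64 ± 1.14 FPKM without it, and 29.4% and 33.6% of tested genes were lower.

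The enzymes that supply the substrate were both at lower mean levels with doxycycline, without passing the test. ACSL4 (ENSG00000068366.20, chromosome X, 109624244 to 109733403, GRCh38) joins arachidonic and adrenic acid to coenzyme A. It was at 24.6, 23.6 and 22.9 FPKM with doxycycline and at 22.6, 26.9 and 27.7 FPKM without it. The lowest of the 6 values was in replicate 1 without doxycycline, inside an otherwise higher group, so the groups overlapped (log2 change -0.11, SE 0.10, 95% interval -0.32 to 0.10, limma adjusted p = 0.496). Without that library the log2 change was -0.20, and without replicate 3 without doxycycline it was -0.05. LPCAT3 (ENSG00000111684.11, chromosome 12, 6976185 to 7018477) esterifies such fatty acids into lysophospholipids. Its values were 20.8, 20.2 and 20.1 FPKM with doxycycline and 22.5, 24.1 and 23.3 FPKM without it. All 3 libraries with doxycycline were lower than the lowest without it, and the spread within each group was small (log2 change -0.19, SE 0.08, 95% interval -0.36 to -0.01, limma adjusted p = 0.154). LPCAT3 shares 3100 of its 4725 annotated exonic bases with EMG1, a ribosome biogenesis gene on the opposite strand. EMG1 itself was at 32.3, 34.8 and 44.4 FPKM with doxycycline and at 27.2, 27.5 and 26.1 FPKM without it (log2 change 0.44, limma adjusted p = 0.0469). The sources used here do not say whether the counting used strand, so reads of the pair cannot be told apart and the LPCAT3 level is uncertain.

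The list of 17 other tested genes covers fatty acid activation, elongation, desaturation and re-acylation, and release from phospholipids by PLA2G6 and PLA2G4A. It is not limited to PUFAs, so its counts and median do not measure PUFA supply. Of the 17, 1 fell and 0 rose, beside 4.77% of all tested genes called lower. At an unadjusted p under 0.05, 5 of the 17 were lower, beside 14.3% of all tested genes. The log2 change was negative in 14 of the 17, beside 50.4% of all tested genes, and the median was -0.17 beside 0.00. No test of the list as a whole was made. The one that fell was ACSL5, an acyl-CoA synthetase of mitochondria and the endoplasmic reticulum, with 54.1, 56.2 and 57.0 FPKM with doxycycline against 71.1, 69.1 and 69.3 FPKM without it (log2 change -0.32, limma adjusted p = 0.0281). Its call was kept without replicate 3 with doxycycline and lost without any other single library (adjusted p 0.0581 to 0.119). FADS1, the delta-5 desaturase that makes arachidonic acid, averaged 25.4 ± 0.840 FPKM with doxycycline and 31.1 ± 2.52 FPKM without it (adjusted p = 0.0735). Ether lipid synthesis supplies another class of oxidisable phospholipid, and of its 9 tested genes 0 passed the limma threshold in either direction or an unadjusted p under 0.05 (median 0.06). The smallest p-values there were those of the peroxisome assembly gene PEX10, at 2.75 ± 0.398 and 3.36 ± 0.364 FPKM with and without doxycycline (adjusted p = 0.283), and of the fatty acyl-CoA reductase gene FAR2, at 3.59 ± 0.982 and 2.75 ± 0.209 FPKM (0.294).

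On the oxidising side, POR (ENSG00000127948.16, chromosome 7, 75899200 to 75986855), the flavoprotein that passes electrons from NADPH to cytochromes P450, was at 49.1, 50.4 and 62.2 FPKM with doxycycline and at 48.1, 55.0 and 44.3 FPKM without it. The highest value belonged to replicate 3 with doxycycline, and the other 5 values were mixed between the groups (log2 change 0.13, SE 0.11, 95% interval -0.13 to 0.39, limma adjusted p = 0.501). Without that library the log2 change was 0.02, and without replicates 2 or 3 without doxycycline it was 0.21 or 0.06. Of 8 tested electron acceptors and partners of POR, 0 passed the limma threshold, and the median was -0.04. An unadjusted p under 0.05 was reached by 2, both lower, where 14.3% of all tested genes were lower at that threshold. These were the sterol synthesis enzymes SQLE, at 40.1 ± 1.64 FPKM with doxycycline and 46.6 ± 2.87 FPKM without it (adjusted p = 0.125), and CYP51A1, at 49.3 ± 1.18 and 57.3 ± 4.27 FPKM (0.128).

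PEBP1 (ENSG00000089220.5, chromosome 12, 118136124 to 118145584) restrains MAP kinase signalling and can direct 15-lipoxygenases to membrane phospholipids. It was at 179, 185 and 221 FPKM with doxycycline and at 192, 188 and 182 FPKM without it. Here too replicate 3 with doxycycline was the highest, while replicate 1 with doxycycline was the lowest of all (log2 change 0.05, SE 0.09, 95% interval -0.16 to 0.26, limma adjusted p = 0.776). The sign turned without replicate 3 with doxycycline (-0.04) and with all libraries scaled to equal totals (-0.01). A processed copy elsewhere in the genome, PEBP1P2, was listed at 2.79 to 4.31 FPKM, and the sources used here do not say how reads were divided between such copies. ALOX15, a lipoxygenase partner of PEBP1, did not reach the level needed for the test. It was at 0.696, 0.608 and 0.211 FPKM with doxycycline and 0.170, 0.301 and 0.169 FPKM without it, and the groups overlapped. ALOX15 was picked out after its values were seen. ALOX15B, another 15-lipoxygenase, was at most 0.0594 FPKM in any library, also too low for the test. Of 16 lipoxygenase and other oxidant source genes 6 were tested, 8 stayed under 1 FPKM in every library, and 0 passed either the adjusted or the unadjusted threshold (median 0.04). The smallest p-values were those of the NADH-cytochrome b5 reductase CYB5R1, at 8.03 ± 0.355 and 9.22 ± 0.594 FPKM with and without doxycycline (adjusted p = 0.248), and of the cyclooxygenase PTGS2, at 1.21 ± 0.219 and 0.869 ± 0.189 FPKM (0.30). PTGS2 met the minimum of 1 FPKM in all 3 libraries with doxycycline, where it was higher. Without doxycycline only replicate 2 met it (1.04 FPKM), so the gene entered the test through the group where it was higher. Its p-value is therefore no support for a change. Among 4 tested signalling partners of PEBP1 0 were called by limma (median 0.15). MAP2K2 alone was at an unadjusted p under 0.05, higher with doxycycline, beside 13.6% of all tested genes. The kinase genes MAP2K2 and MAP2K1 averaged 49.2 ± 3.87 and 27.3 ± 1.54 FPKM with doxycycline and 41.8 ± 4.59 and 24.6 ± 0.566 FPKM without it (adjusted p = 0.169 and 0.284).

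GPX4 (ENSG00000167468.18, chromosome 19, 1103926 to 1106791) is the peroxidase that acts on phospholipid hydroperoxides inside membranes. It was at 134, 135 and 169 FPKM with doxycycline and at 138, 126 and 124 FPKM without it. Replicate 3 with doxycycline was well above the rest, and the other 2 libraries with doxycycline lay below replicate 1 without it. The change did not pass the test (log2 change 0.16, SE 0.10, 95% interval -0.07 to 0.40, limma adjusted p = 0.34; exact two-sided permutation p = 0.3, where 3 against 3 libraries cannot go below 0.1). On the scale of FPKM + 1 the 95% interval ran from 0.953-fold to 1.32-fold. Without replicate 3 with doxycycline the log2 change was 0.05.

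GPX4 depends on selenocysteine, which ribosomes insert at a UGA codon that elsewhere ends translation. The coding sequence of GPX4 and of its 2 tested relatives is shown around that codon, since it is what separates the enzymes that need the selenium machinery described next from the one that does not. The windows are coding strand, 5′ to 3′, 63 bases each from GENCODE 29 transcripts on GRCh38, with the active-site codon in capitals; it is codon 73 of GPX4 (exon 3, chr19:1105403-1105405), codon 49 of GPX1 (exon 1, chr3:49358132-49358134, minus strand) and codon 79 of GPX8 (exon 2, chr5:55161024-55161026).
GPX4: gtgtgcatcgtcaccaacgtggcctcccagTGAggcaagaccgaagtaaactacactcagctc
GPX1: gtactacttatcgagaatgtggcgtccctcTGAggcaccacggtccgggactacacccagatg
GPX8: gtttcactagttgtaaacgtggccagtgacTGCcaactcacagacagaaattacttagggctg
GPX4 and GPX1 each have 1 in-frame TGA before the final stop, at this place, and GPX8 has a cysteine codon there and 0 in-frame TGA. Translated and aligned with GPX4, GPX1 was identical at 40.6% and GPX8 at 40.0% of aligned positions.

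Among these relatives GPX8, a peroxidase of the endoplasmic reticulum, rose, with 43.9, 42.1 and 45.9 FPKM with doxycycline against 29.8, 32.7 and 37.1 FPKM without it (log2 change 0.40, SE 0.09, limma adjusted p = 0.034). Every library with doxycycline was above every one without. The call was kept without replicate 3 without doxycycline, was lost without any other single library (adjusted p 0.0689 to 0.124), and missed the threshold with equal totals (0.0531). GPX1, the abundant cytosolic selenoenzyme, was at 127, 135 and 172 FPKM with doxycycline and at 159, 142 and 132 FPKM without it (log2 change 0.00, limma adjusted p = 0.991). As with GPX4, replicate 3 with doxycycline was the highest. GPX2, GPX3 and GPX7 averaged 0.383, 0.201 and 0.0258 FPKM with doxycycline and 0.202, 0.441 and 0.0406 FPKM without it, too low for the test. At an unadjusted limma p under 0.05, 2 of the 13 tested genes for glutathione peroxidases and selenoprotein synthesis were higher and 2 lower. The shares of all tested genes were 13.6% and 14.3%. After adjustment 1 of the 13 rose and 1 fell (median -0.04), beside 3.69% and 4.77% of all tested genes. The one that fell was SEPHS2, which makes the selenium donor selenophosphate, with 29.7, 30.2 and 32.1 FPKM with doxycycline against 37.7, 37.3 and 38.2 FPKM without it (log2 change -0.29, limma adjusted p = 0.0445). Its groups lay far apart relative to their spread, although the call was kept without replicate 3 with doxycycline and lost without any other single library (adjusted p 0.0876 to 0.157).

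AIFM2 (ENSG00000042286.15, chromosome 10, 70098223 to 70132934) reduces coenzyme Q and vitamin K at membranes and protects cells when GPX4 fails. It had the largest change of the 8 genes. Its values were 10.5, 11.2 and 12.9 FPKM with doxycycline and 10.1, 8.97 and 8.03 FPKM without it. Every library with doxycycline was above every one without, but the gap between the closest pair, replicates 1 of both groups, was smaller than the spread inside either group (log2 change 0.32, SE 0.11, 95% interval 0.07 to 0.58, unadjusted limma p = 0.0188, adjusted p = 0.105; exact two-sided permutation p = 0.1, the smallest possible).

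A short stretch near the AIFM2 start is shown because it was the only one of the promoters read here that held the core of the antioxidant response element, the sequence bound by NRF2. The annotations place that start differently: RefSeq has it at 70132825, and GENCODE 29 has it 109 bases upstream, at 70132934, the end of the locus given above (minus strand). The match begins 22 bases before the RefSeq start and 87 bases after the GENCODE start, inside GENCODE exon 1. The stretch (chr10:70132829-70132857, minus strand, from the RefSeq promoter on GRCh38.p14) is printed 5′ to 3′ with the match in capitals.
AIFM2: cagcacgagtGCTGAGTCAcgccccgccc
RefSeq promoters, from 250 bases before to 50 after a start, were found for 6 of the 8 genes, 8 promoters in all, and were searched on both strands. The core TGACNNNGC occurred in 1 of the 8 promoters, that of AIFM2, and in 13.3% of all 35116 promoters. In AIFM2 it lies on the strand opposite to the one printed, so the capitals are its reverse complement. The amino acid response element TGATGNAA, bound by ATF4, was in 0 of the 8 and in 3.62% of all. CCAAT boxes were in 5 of the 8 promoters (34.6% of all) and GC boxes, GGGCGG, in 8 of the 8 (45.0%). Several of the 8 promoters were those of GPX4, and overlapping ones held the same CCAAT boxes. By gene, 4 of the 6 had a CCAAT box and 6 a GC box. The 8 promoters were 67.0% to 79.0% GC, which the search did not take into account. A match of letters is not a measured binding site.

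Coenzyme Q is the main substrate of AIFM2. Of 18 tested genes of coenzyme Q synthesis, handling and reduction 1 rose and 1 fell (median 0.08). The shares of all tested genes were 3.69% and 4.77%. Before adjustment, 4 of the 18 were higher and 3 lower at a limma p under 0.05, beside 13.6% and 14.3%. COQ10B, a coenzyme Q binding protein of mitochondria, rose to 20.6, 22.3 and 24.1 FPKM with doxycycline, against 15.1, 14.5 and 17.0 FPKM without it (log2 change 0.50, limma adjusted p = 0.0191). STARD7, a lipid transfer protein that carries coenzyme Q out of mitochondria, fell to 42.1, 44.2 and 48.0 FPKM with doxycycline, against 57.4, 60.9 and 60.9 FPKM without it (log2 change -0.41, limma adjusted p = 0.02). Neither pair of groups overlapped. COQ10B lost its call without replicates 1 or 2 without doxycycline or replicate 2 with it (0.0571, 0.0909 and 0.0601). STARD7 lost its call without replicates 2 or 3 without doxycycline or replicates 1 or 2 with it (0.0509 to 0.0955). In the vitamin K cycle 0 of 3 tested genes were called by limma (median -0.14). VKORC1L1 alone was at an unadjusted p under 0.05, lower with doxycycline, beside 14.3% of all tested genes. The reductase VKORC1L1 averaged 9.96 ± 0.410 FPKM with doxycycline and 11.9 ± 1.27 FPKM without it (adjusted p = 0.167), and the carboxylase GGCX 13.3 ± 1.23 and 14.8 ± 1.56 FPKM (0.43).

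DHODH (ENSG00000102967.12, chromosome 16, 72008588 to 72027664) oxidises dihydroorotate for pyrimidine synthesis in the inner mitochondrial membrane and reduces coenzyme Q there. It was at 5.29, 3.55 and 4.68 FPKM with doxycycline and at 5.90, 6.63 and 4.38 FPKM without it. Replicate 3 without doxycycline lay inside the range of the libraries with it, so the groups overlapped (log2 change -0.27, SE 0.16, 95% interval -0.63 to 0.10, limma adjusted p = 0.315). The log2 change was -0.14 without replicate 2 with doxycycline, -0.16 without replicate 2 without it and -0.41 without replicate 3 without it. Its coefficient of variation was 19.6% with doxycycline and 20.3% without it, the widest of the 8 genes. It was also the least abundant, with an estimated 298 to 566 fragments per library if all came from its longest coding transcript. Of 9 tested pyrimidine genes beside DHODH 0 were called by limma (median 0.09). At an unadjusted p under 0.05, UCK2 was higher and CAD lower, beside 13.6% and 14.3% of all tested genes. The uridine-cytidine kinase UCK2 averaged 31.8 ± 2.41 FPKM with doxycycline and 25.4 ± 1.23 FPKM without it (adjusted p = 0.0566), and CAD, which carries the steps before DHODH, 21.3 ± 2.20 and 26.9 ± 4.56 FPKM (0.155).

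GCH1 (ENSG00000131979.20, chromosome 14, 54842008 to 54902826) catalyses the committed step of tetrahydrobiopterin synthesis, and tetrahydrobiopterin traps lipid radicals. It was at 17.9, 17.9 and 20.8 FPKM with doxycycline and at 15.5, 16.5 and 17.3 FPKM without it. All 3 libraries with doxycycline were above the highest without it, by a margin smaller than the spread of either group (log2 change 0.19, SE 0.09, 95% interval -0.02 to 0.40, limma adjusted p = 0.222). The log2 change was 0.12 without replicate 3 with doxycycline. With equal totals the margin was 18.1 FPKM for the lowest library with doxycycline against 17.9 FPKM for the highest without it.

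Around GCH1, 6 genes for tetrahydrobiopterin synthesis and recycling were tested (median 0.11), of which 0 rose and GCHFR alone was past the threshold, on the lower side. At an unadjusted limma p under 0.05, 1 of the 6 was higher and 1 lower, beside 13.6% and 14.3% of all tested genes. GCHFR, the feedback regulator that inhibits the GCH1 enzyme, was at 0.553, 0.694 and 1.06 FPKM with doxycycline against 1.47, 1.63 and 1.94 FPKM without it (log2 change -0.61, SE 0.15, limma adjusted p = 0.0384). With a pseudocount of 0.1 in place of 1 the log2 change was -1.07, and the mean with doxycycline was 45.7% of that without. It met the minimum of 1 FPKM in all 3 libraries without doxycycline, where it was high. With doxycycline only replicate 3 met it (1.06 FPKM). The gene thus entered the test through the group where it was high, so its call is no support for a change. It rested on an estimated 8 to 23 fragments per library and kept its call without replicate 3 with doxycycline but lost it without any other single library (adjusted p 0.0733 to 0.112). PCBD1, a dehydratase that recycles the cofactor, averaged 78.7 ± 10.2 FPKM with doxycycline and 63.4 ± 1.23 FPKM without it (adjusted p = 0.0824).

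Downstream of the peroxide, 18 genes that clear lipid peroxides and their aldehydes were tested, of which 1 fell and 0 rose (median 0.00). Among all tested genes 4.77% were called lower and 3.69% higher. Before adjustment, 3 of the 18 were higher and 2 lower at a limma p under 0.05, beside 13.6% and 14.3%. PRDX2, a cytosolic peroxiredoxin, fell to 90.4, 92.4 and 102 FPKM with doxycycline, against 142, 136 and 121 FPKM without it (log2 change -0.49, limma adjusted p = 0.0156). The call was lost without replicates 1 or 2 without doxycycline or replicate 2 with it (0.0539, 0.0786 and 0.0556). Its mitochondrial relative PRDX3 averaged 220 ± 14.7 FPKM with doxycycline and 182 ± 7.60 FPKM without it (adjusted p = 0.0688). Over the 11 lists around the 8 genes, 111 genes were tested and 7 called (6.31%), or 6 of 110 (5.45%) without GCHFR, where 8.46% of all tested genes were called.

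**Figure D2:**
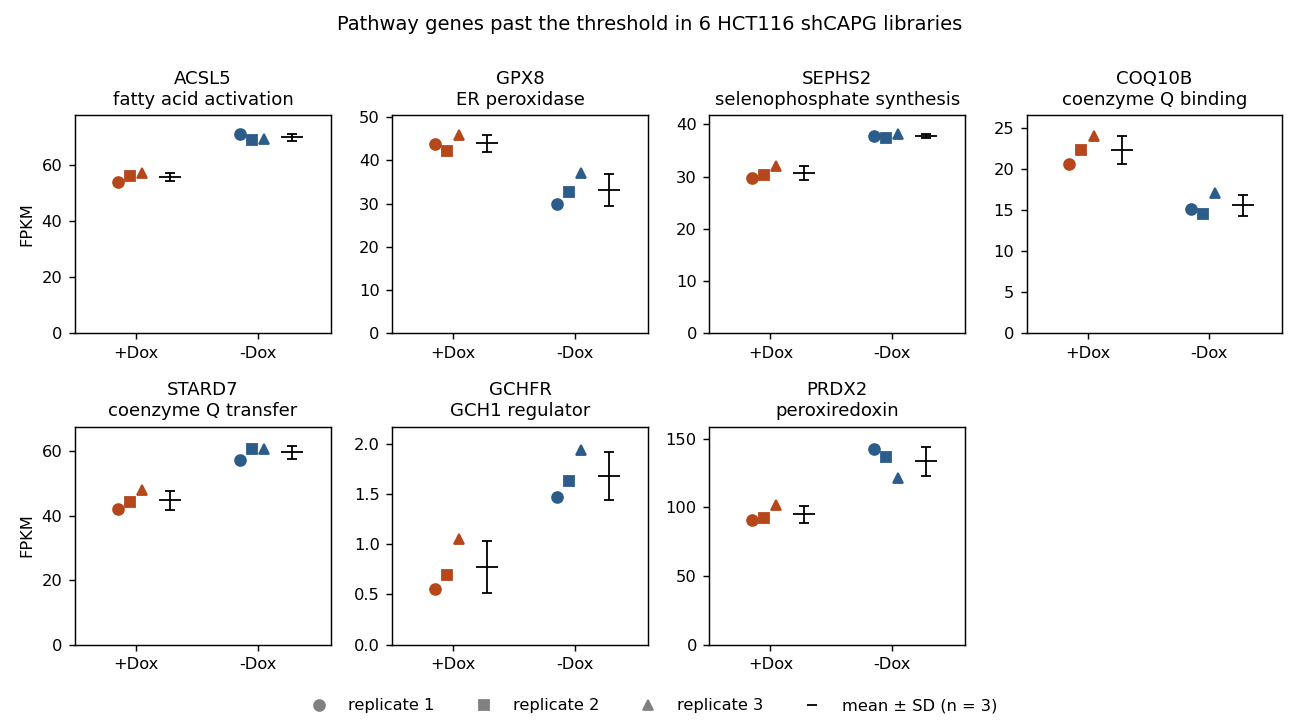
FPKM (linear axes from 0) of the 7 surrounding genes past the limma threshold, with doxycycline at left (orange) and without at right (blue); bars are mean ± SD, n = 3. GPX8 and COQ10B lie higher and the other 5 lower in all 3 libraries with doxycycline. GCHFR entered the test through the libraries without it, since with it only replicate 3 met the minimum of 1 FPKM.

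**Figure D3:**
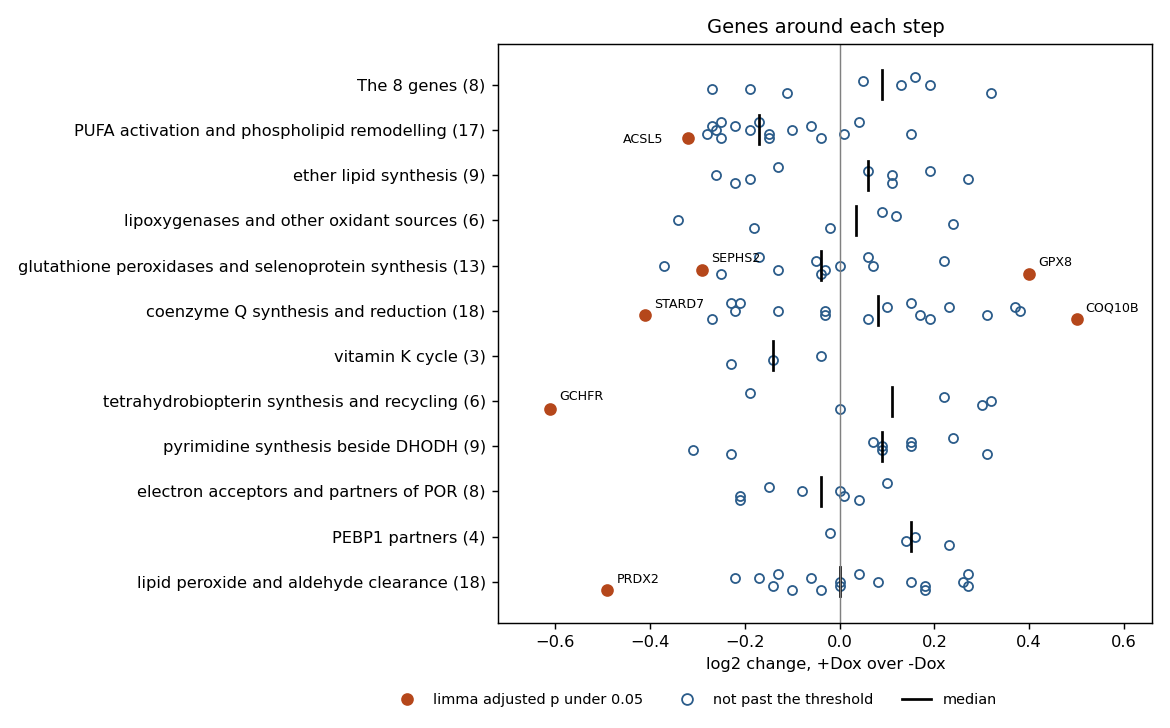
Log2 change (with over without doxycycline) of every tested gene in the 8 and in the 11 surrounding lists; filled points passed the limma threshold, black bars are medians and the number tested is in brackets. The 8 genes hold no filled point, and the fatty acid activation and remodelling list has the lowest median, -0.17.

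Of the 8 genes, 5 (POR, PEBP1, GPX4, AIFM2 and GCH1) had their highest value of all 6 libraries in replicate 3 with doxycycline, the library with the largest FPKM sum, as did 28.0% of all tested genes. With equal totals that library still held the highest value of each (57.2, 203, 156, 11.9 and 19.2). Across the libraries, deviations from a gene's mean also varied with base composition. Their correlation across genes with transcript GC content was -0.128, -0.0982 and 0.136 in replicates 1, 2 and 3 with doxycycline, and 0.369, 0.00687 and -0.30 in replicates 1, 2 and 3 without it. In replicate 3 with doxycycline the correlation with log transcript length was -0.30. When each library's trend with length and GC was removed, a correction chosen after seeing the data, AIFM2 passed the threshold (log2 change 0.36, SE 0.08, limma adjusted p = 0.022), 1 of 8 beside 11.1% of all genes called higher with this correction, and 0 of the 8 were lower beside 8.82% (19.9% in either direction). The remaining 7 did not pass, with adjusted p from 0.0989 for LPCAT3 to 0.602 for PEBP1. The log2 change of GPX4 was then 0.14 (SE 0.06, adjusted p = 0.13).

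**Figure D4:**
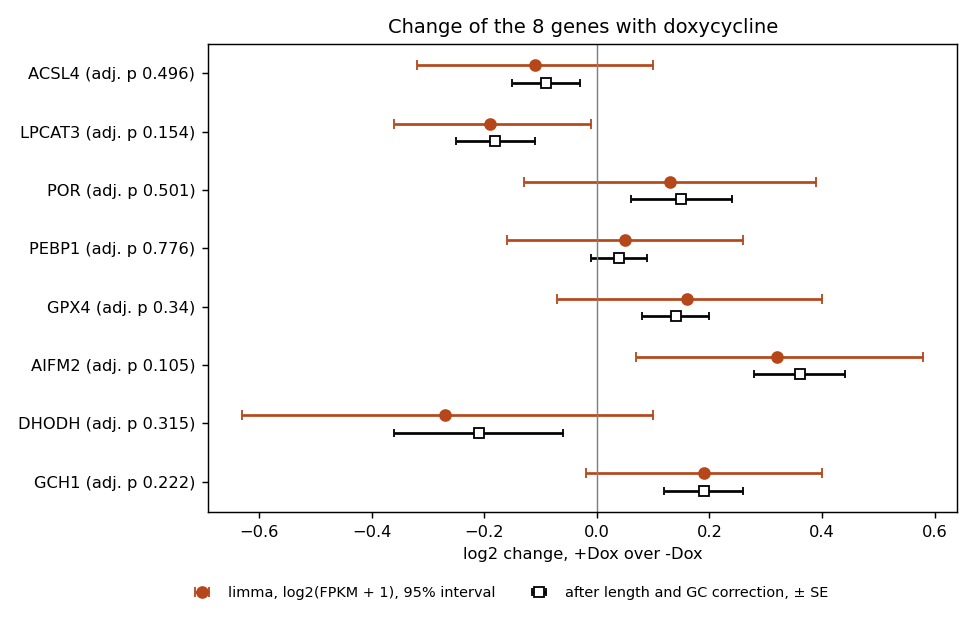
Log2 change with over without doxycycline of the 8 genes on log2(FPKM + 1): filled circles with 95% intervals from limma, open squares with SE after the length and GC correction. AIFM2 lies farthest to the right at 0.32 and DHODH farthest to the left at -0.27, and 6 of the 8 intervals include 0.

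Ratios within a library do not depend on its scaling, and 5 were picked after the values were seen. Trends of a library with transcript length and GC need not cancel in them. GPX4 over ACSL4, defence over substrate supply, was 5.42, 5.70 and 7.39 with doxycycline and 6.09, 4.71 and 4.47 without it, and the groups overlapped. AIFM2 over ACSL4 was 0.425, 0.475 and 0.565 with doxycycline and 0.446, 0.334 and 0.290 without it, again with overlap. AIFM2 over GPX4 was 0.0784, 0.0833 and 0.0764 with doxycycline and 0.0733, 0.0710 and 0.0648 without it, and GPX4 over PEBP1 was 0.747, 0.727 and 0.767 with doxycycline and 0.716, 0.671 and 0.680 without it. In both of these the groups did not overlap, as was so for 34.5% of all tested genes taken singly. The share among other ratios was not worked out. ACSL4 over LPCAT3 averaged 1.17 ± 0.0212 with doxycycline and 1.10 ± 0.0939 without it, with overlap.

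As a description of pattern, the gene most like each of the 8 was sought among 9674 other tested genes with a symbol and a mean of at least 5 FPKM, by Pearson's r of log2(FPKM + 1) over the 6 libraries. All share the same libraries, so high values of r are common. AIFM2 was closest to BSG (r = 0.998), with 376 genes above 0.95, and GCH1 to MRPL3 (0.996), with 187 such genes. LPCAT3 was closest to TES (0.997), PEBP1 to the pseudogene TPI1P1 (0.997) and GPX4 to ZNF7 (0.995). ACSL4 was closest to TMOD3 (0.987), DHODH to UCK1 (0.987) and POR to ADH5 (0.981). DHODH had the fewest genes above 0.95, 9. Among the 8 themselves r was highest between GPX4 and PEBP1 (0.92) and lowest between LPCAT3 and AIFM2 (-0.87), over the same 6 libraries.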

How the data were processed

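Gene expression was measured by RNA sequencing in 6 libraries. The table deposited by the authors gives each gene a value in every library, treated as FPKM because of how the values behave, since the header names no unit. Bowtie, BWA, STAR, Cufflinks, RSEM, kallisto and the build hg19 are named without roles, per the submitters' processing notes. The loci are instead those of GRCh38: 39321 of 39331 identifiers found in GENCODE 29 matched after starts were shifted by 1 base, and coordinates are given on GRCh38, counted from 1. A gene entered the test if 3 or more libraries had 1 FPKM or more. limma 3.58.1 (R 4.3.3) was fitted to log2(FPKM + 1), trended and robust, for the difference between the groups, and its two-sided p-values were adjusted (Benjamini-Hochberg) over all 14475 genes. Fitting log values is what FPKM needs; a count test was not used. The fit was tested on simulated data. Depth was estimated from the lowest values of 3644 single-exon genes longer than 1000 bases, assuming whole fragments over the exon length; intervals and floors cover counting error or library spread only. Lists hold genes named from textbook knowledge, of which 2 are not reported here and stand in no list count; the 8 genes, the lists and the tests were chosen with earlier results of these data known. Named genes were the 8, CAPG, the glutathione peroxidase family and the closest gene to each of the 8. From each list came all genes past the threshold or else those with its smallest p up to 2. EMG1, VIL1, CDX1, other markers, ALOX15 and ALOX15B were added after their values were seen. Alternatives were another pseudocount, filters, scalings, plain empirical Bayes, the replicate number as a block, each library left out, and the added length and GC correction, which covered 99.5% of tested genes.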

Additional observations from a re-analysis of the deposited data

How the results depend on the processing

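Of the 8 genes, 7 kept their direction under all 14 alternatives. The log2 change of PEBP1 turned to -0.01 with equal totals and to -0.04 without replicate 3 with doxycycline, the lowest of -0.04 to 0.11 over the libraries left out in turn. Calls among the 8 stayed at 0 in either direction under the other 13 settings, and the length and GC correction, added after seeing the data, called 1 higher (AIFM2, log2 change 0.36, adjusted p = 0.022; 0.0862 to 0.255 in the other settings). CAPG was called lower in all 14. The number of all genes called higher, 534, and lower, 691, moved to 1600 and 1270 with the length and GC correction, to 53 and 100 without a filter on low values, and to 354 higher with the plain empirical Bayes fit. Leaving out 1 library gave 76 to 412 higher and 147 to 588 lower. The cause of these shifts was not tested. Same-numbered libraries deviated with correlations of -0.0433, 0.00936 and -0.0231, and differently numbered ones with -0.0856 to 0.102. With 3 libraries per group these values cannot exclude a source shared by same-numbered libraries. With the replicate block 69 genes were called higher and 142 lower, and 0 of the 8. With the block, and also without a filter on low values, the 7 surrounding genes named above as called all lost their calls; the plain empirical Bayes fit lost ACSL5, GPX8 and SEPHS2. EPCAM lost its call under all 3 of these settings. All 7 were called after the length and GC correction. With 3 libraries per group, changes as small as most of those seen in the 8 genes could not be separated from the spread between libraries.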
